A study of Populus tremula x Populus alba with 7 samples.

Results

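Some stretches of the poplar genome assembly have not been joined to any chromosome, and the peaks of 6 transcription factors (TFs) on these unplaced scaffolds are described here. Members were all peaks of the 6 peak lists on a sequence whose name does not begin with Chr, whatever their strength, which gave 348 of 9442 peaks on 91 scaffolds. The other 9094 peaks lay on the 19 chromosomes. The 2 zinc finger proteins PtrC2H2ZF1 and PtrC2H2ZF2, the auxin response factor PtrARF5a, the homeodomain proteins PtrBLH and PtrCORONA, and the NAC protein PtrNAC127 had each been fused to GFP, driven by the CaMV35S promoter and expressed for a short time in infiltrated leaves of the hybrid poplar Populus tremula × alba. Chromatin was fixed with 1% formaldehyde for 15 min, pulled down with an antibody to GFP, and sequenced as 1 library per TF. A sample processed without the antibody was the control and is called the input. The groups therefore shared the host, the promoter, the infiltration and the control, and differed in the fusion protein. Expression from a strong promoter in leaves limits each group as a model of the TF in its own tissue, and with 1 library per TF no difference between TFs could be tested.

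A peak in ChIP-seq is an interval in which more fragments were recovered from the antibody sample than from the control, and its summit is the point of largest enrichment. Unplaced scaffolds are assembled pieces, often short and often rich in repeats or in sequence that is nearly identical between the parental copies, for which the assembly found no position. Reads from such sequence can match several places, so read filters bear on them more than on unique sequence. The zinc fingers of PtrC2H2ZF1 and PtrC2H2ZF2 are of the C2H2 type, auxin response factors such as PtrARF5a control genes that answer to auxin, PtrBLH is of the BELL-like class, NAC proteins include regulators of wood cell walls, and CORONA in Arabidopsis is a class III homeodomain-leucine zipper protein of meristem and vascular development. The study examined them as candidate regulators of PtrPARVUS2, a glycosyltransferase gene placed in the synthesis of xylan, a hemicellulose of the wood cell wall.

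The number of scaffold peaks was alike in 5 of the lists and larger in the list of PtrARF5a. There were 40 of 575 peaks for PtrC2H2ZF1, 40 of 607 for PtrC2H2ZF2, 44 of 1023 for PtrBLH, 45 of 681 for PtrNAC127 and 50 of 1159 for PtrCORONA, whereas PtrARF5a had 129 of 5397. As a share of the list PtrARF5a was instead the lowest, and the zinc finger and PtrNAC127 lists were the highest. Scaffold peaks made up 6.96% of the PtrC2H2ZF1 list (exact 95% Clopper-Pearson interval 5.02 to 9.35%), 6.59% of the PtrC2H2ZF2 list (4.75 to 8.87%) and 6.61% of the PtrNAC127 list (4.86 to 8.74%). The share was 4.30% for PtrBLH (3.14 to 5.73%), 4.31% for PtrCORONA (3.22 to 5.65%) and 2.39% for PtrARF5a (2.0 to 2.83%). The interval of PtrARF5a lay under those of the other 5 lists, while the intervals of these 5 overlapped. Such intervals cover counting error only, since neighbouring peaks of 1 library are not replicates. Scaffold lengths were not used here, so the shares could not be set against the share of the genome that the scaffolds hold. In bases, scaffold peaks covered 28931 bp for PtrC2H2ZF1 and 38073 bp for PtrARF5a, which was 7.29% and 2.56% of the bases under all peaks of these lists.

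Peaks were spread thinly over the scaffolds. PtrARF5a marked 88 of the 91 scaffolds, PtrCORONA 42, PtrBLH and PtrNAC127 37 each, and both zinc finger proteins 34 each. In every list most marked scaffolds carried a single peak: 28 of 34 for PtrC2H2ZF1 and for PtrC2H2ZF2, 63 of 88 for PtrARF5a, 30 of 37 for PtrBLH, 29 of 37 for PtrNAC127 and 34 of 42 for PtrCORONA. No list other than that of PtrARF5a had more than 2 peaks on any scaffold, and PtrARF5a reached 6, on scaffold_25 and on scaffold_29. Over all lists, 41 scaffolds held 1 peak, and scaffold_37 held the most, with 14.

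When peaks that shared at least 1 bp were merged across the lists, the scaffolds held 129 regions, which was 2.35% of the 5498 regions of the whole genome. Of these, 37 had a peak of all 6 lists, 19 had peaks of 2 to 5 lists (14.7%, against 15.6% of all regions), and 73 had a peak of 1 list. Regions of all 6 lists thus made up 28.7% of scaffold regions, beside 8.87% (476 of 5369) of the chromosome regions and 9.33% of all regions. Regions of PtrARF5a alone made up 53.5% of scaffold regions (69 of 129), beside 73.2% on the chromosomes and 72.8% of all regions. Most scaffold regions were therefore either common to every TF or found with PtrARF5a alone, but so were most of all regions. What differed on scaffolds was the balance between these classes (28.7 and 53.5%, beside 9.33 and 72.8% of all regions).

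Seen from each list, most scaffold peaks of the 5 shorter lists fell in regions of all 6 lists. This held for 37 of 40 peaks of PtrC2H2ZF1 (92.5%, against 90.1% of its whole list) and for 37 of 40 of PtrC2H2ZF2 (92.5%, against 85.2%). It also held for 37 of 44 peaks of PtrBLH (84.1%, against 50.8%), 37 of 45 of PtrNAC127 (82.2%, against 76.1%) and 37 of 50 of PtrCORONA (74.0%, against 44.5%). For PtrARF5a the count was 40 of 129 (31.0%, against 10.2%). The share of the first zinc finger protein was near that of its whole list, and the widest gaps between scaffolds and whole lists belonged to PtrBLH and PtrCORONA.

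Peaks with no partner in any other list were rare outside PtrARF5a. There was 1 such scaffold peak for PtrC2H2ZF1 (2.50%, against 0.522% of its whole list), none among 40 for PtrC2H2ZF2 (which allows a share of up to 7.5%, taking 3 counts as the limit of a count of 0, against 0.659% of its whole list), 1 for PtrBLH (2.27%, against 4.2%), 1 for PtrNAC127 (2.22%, against 3.52%) and 1 for PtrCORONA (2.0%, against 4.4%). PtrARF5a had 69 (53.5%, against 74.1%). Counts of 0 or 1 in 40 to 50 peaks do not separate these 5 lists from their backgrounds.

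**Figure D1:**
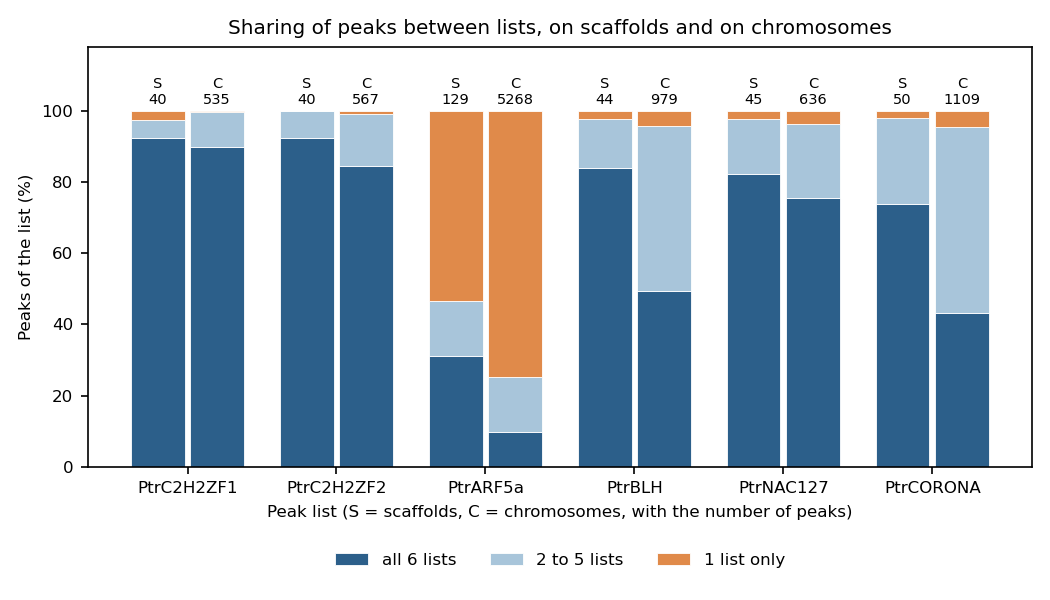
Stacked bars give the percent of each list's peaks that lay in regions of all 6 lists, of 2 to 5 lists and of 1 list only, for scaffolds (S) and chromosomes (C), with the number of peaks above each bar. The dark segment was larger on scaffolds in all 6 lists, from 92.5 against 89.9% for PtrC2H2ZF1 to 84.1 against 49.3% for PtrBLH, and the PtrARF5a bars were mostly single-list peaks (53.5 against 74.6%).

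On the chromosomes the shares in regions of all 6 lists were 89.9% for PtrC2H2ZF1, 84.7% for PtrC2H2ZF2, 9.70% for PtrARF5a, 49.3% for PtrBLH, 75.6% for PtrNAC127 and 43.2% for PtrCORONA. The scaffold share was higher in 6 of 6 lists, by 17.3 percentage points on average (SD 13.6, n = 6 libraries), and by 2.59 to 34.8 points in the single lists. An exact two-sided sign-flip permutation test over the 6 libraries gave p = 0.03125, the smallest value that 6 libraries allow. After Benjamini-Hochberg adjustment over 8 measures this permutation p was 0.125, so the difference did not pass. From that smallest value, 1 measure could not pass alone at an adjusted threshold of 0.05. Not passing therefore does not show that there was no difference. The share of peaks of 1 list only was lower on scaffolds in 5 of 6 lists and higher for PtrC2H2ZF1, with a mean difference of −4.27 points (exact permutation p = 0.1875, adjusted 0.25). With a reciprocal overlap of 50% in place of 1 bp, the single-list share was lower in 3 lists and higher in 3 (mean difference −4.04 points). The share in regions of all 6 lists counts the same regions in each list, and all libraries had a common input, so the 6 differences are not independent.

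Pairwise overlap followed the same division. PtrARF5a peaks overlapped 39 of 40 scaffold peaks of PtrC2H2ZF1, 39 of 40 of PtrC2H2ZF2, 43 of 44 of PtrBLH, 43 of 45 of PtrNAC127 and 49 of 50 of PtrCORONA, that is 95.6 to 98.0% of each of these lists, beside 94.3 to 97.7% over all peaks, a range close to it. In the other direction, peaks of the other lists overlapped 32.6% (either zinc finger protein), 35.7% (PtrBLH), 36.4% (PtrNAC127) and 40.3% (PtrCORONA) of the PtrARF5a scaffold peaks, beside 11.0 to 21.0% of all PtrARF5a peaks. Among the other 5 lists the shares ran from 78.0 to 97.5%, beside 48.0 to 97.6% over all peaks. The 2 zinc finger lists overlapped in 38 of 40 peaks each way (95%, beside 97.6% and 91.8% over all peaks). PtrCORONA had the lowest shares among these 5 lists, with 78.0% of its scaffold peaks overlapped by each of PtrC2H2ZF1, PtrC2H2ZF2 and PtrBLH and 82.0% by PtrNAC127, beside 48.0, 49.7, 63.2 and 54.4% of its whole list.

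At the level of whole scaffolds, 31 of the 91 were marked by every TF, 44 by 1 TF only, and 16 by 2 to 5. Every scaffold marked by all TFs also held a region in which all 6 lists met, so the marking did not come from separate places on the sequence. A single such region was found on 25 of them and a pair on 6, and 18 of the 31 carried nothing else. Of the 44 scaffolds marked by a single TF, 42 belonged to PtrARF5a, 1 (scaffold_200) to PtrC2H2ZF1 and 1 (scaffold_95) to PtrNAC127. No scaffold was marked by PtrC2H2ZF2, PtrBLH or PtrCORONA alone. Among the 16 scaffolds between these extremes, PtrARF5a with PtrCORONA marked 4, PtrARF5a with PtrBLH marked 3, and 2 each carried PtrARF5a with PtrBLH and PtrCORONA or PtrARF5a with PtrNAC127 and PtrCORONA. The remaining combinations occurred on 1 scaffold each.

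Where a scaffold held a pair of regions common to all TFs, the distance between them varied widely. The gap was 1187 bp on scaffold_28, 4230 bp on scaffold_207, 5570 bp on scaffold_146, 23703 bp on scaffold_37, 27892 bp on scaffold_22 and 114120 bp on scaffold_50. The members of a pair could be of very different strength. On scaffold_28 the region at scaffold_28:226525-227141 stood at percentile 80.2 of −log10 q in the PtrC2H2ZF1 list, while its neighbour at scaffold_28:224832-225337 stood at 14.1. Here the −log10 q is the caller's measure of confidence in a peak after correction for multiple testing, and the percentile is the place of the peak within its own list, with 100 the largest. Coordinates are those of the peak lists on the Populus tremula × alba assembly, counted from 1. The sources used here do not give the assembly version, and no gene annotation was used, so positions relative to genes are not reported.

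By −log10 q the strongest scaffold region was scaffold_555:8940-10265, at a mean percentile of 99.6 over the 6 lists. Its −log10 q was 651 for PtrC2H2ZF1, 644 for PtrC2H2ZF2, 232 for PtrARF5a, 466 for PtrBLH, 323 for PtrNAC127 and 399 for PtrCORONA. It held the first place in the whole PtrBLH list and the second place in both zinc finger lists, and ranked 5 of 1159 for PtrCORONA, 10 of 681 for PtrNAC127 and 35 of 5397 for PtrARF5a. Fold enrichment, the ratio of antibody signal over the input at the summit, was 41.4, 43.5, 12.5, 20.7, 10.4 and 14.1 in the same order of lists. By fold its mean percentile was 75.7, from 38.5 for PtrNAC127 to 87.7 for PtrARF5a. Fold enrichments and −log10 q depend on the depth and background of each library, so they were read within a list and not between lists.

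Next came scaffold_146:14762-17601, at a mean percentile of 99.5, which was the widest of the 37 regions at 2840 bp. It held the first place in the PtrC2H2ZF2 list (−log10 q 669.7, fold enrichment 54.9) and the second in the PtrCORONA list (416, fold 16.3). Its −log10 q was 645 for PtrC2H2ZF1 (place 3 of 575), 241 for PtrARF5a, 402 for PtrBLH and 327 for PtrNAC127. The peak was a single interval of 2581 to 2838 bp in every list. A second region of the same scaffold, scaffold_146:23172-24024, reached a mean percentile of 97.3, and within the PtrARF5a list it was the strongest scaffold peak (−log10 q 269, place 12 of 5397). By −log10 q the 2 regions of scaffold_146 were therefore both near the top of every list. By fold enrichment the wider region ran from percentile 42.3 (PtrNAC127) to 96.7 (PtrC2H2ZF2). The narrower one ran from 48.6 (PtrNAC127) to 94.5 (PtrARF5a).

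At a mean percentile of 98.6 came scaffold_966:11889-13139, with −log10 q of 567 for PtrC2H2ZF1, 599 for PtrC2H2ZF2, 259 for PtrARF5a, 386 for PtrBLH, 285 for PtrNAC127 and 349 for PtrCORONA. The wider region of scaffold_37, scaffold_37:245893-248313, followed at 96.1, with −log10 q of 415, 425, 207, 314, 226 and 281 in the same order. Together with scaffold_42:51124-51955, at 94.0, these regions were the 6 that lay above the 90th percentile in every list. The places 7 to 10 by mean percentile went to scaffold_299:11591-12863 (93.1), scaffold_37:272017-272697 (91.0), scaffold_151:53827-54497 (90.8) and scaffold_158:7855-8533 (90.7). These were past the 90th percentile in some lists and just under it in others, for instance 99.0 for PtrARF5a and 84.9 for PtrC2H2ZF1 in the narrower region of scaffold_37.

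**Figure D2:**
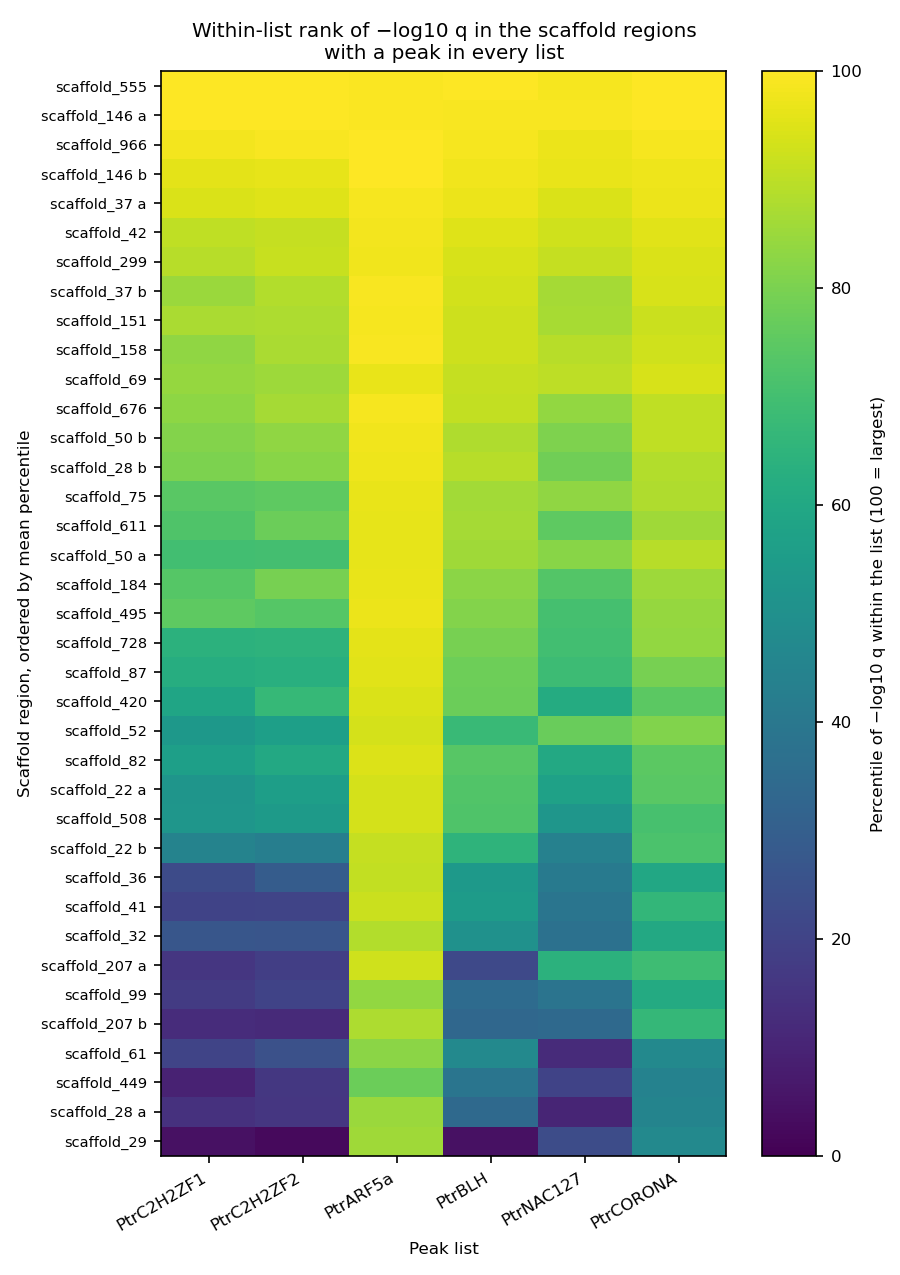
Rows are the 37 scaffold regions with a peak in every list, ordered by mean percentile, columns are the 6 peak lists, and colour gives the percentile of −log10 q within the list (100 is the largest); a and b mark the first and second region along a scaffold. The top 6 rows lie above the 90th percentile in every list, and the PtrARF5a column stays between 77.5 and 99.8 while the zinc finger columns run down to 4.43 and 2.64.

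Regions common to all TFs spanned nearly the whole range of strength in the zinc finger and PtrBLH lists. The percentile of −log10 q ran from 4.43 to 99.8 (median 69.6) for PtrC2H2ZF1, from 2.64 to 100 (median 70.1) for PtrC2H2ZF2, from 4.45 to 100 (median 81.5) for PtrBLH, from 10.2 to 99.0 (median 73.3) for PtrNAC127 and from 44.2 to 99.9 (median 84.3) for PtrCORONA. For PtrARF5a, whose list is several times longer, the range was 77.5 to 99.8 and the median 96.2. Accordingly 30 of the 37 regions were above the 90th percentile for PtrARF5a, while PtrCORONA had 13, PtrBLH 12, PtrNAC127 8, PtrC2H2ZF2 7 and PtrC2H2ZF1 6. No region was under the 50th percentile for PtrARF5a, and 11 were for each zinc finger protein. Because of PtrARF5a, none of the 37 could be under the 50th percentile in every list. Some were under it in all of the other 5 lists, among them scaffold_449:24422-24877 and scaffold_61:169969-170480.

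The lowest mean percentile, 27.9, was that of scaffold_29:197165-197695. Fold enrichment there was 7.30 for PtrC2H2ZF1, 5.79 for PtrC2H2ZF2, 12.8 for PtrARF5a, 5.24 for PtrBLH, 12.6 for PtrNAC127 and 10.1 for PtrCORONA. It had the smallest fold enrichment of the 37 regions in the zinc finger and PtrBLH lists, but took place 13 for PtrNAC127. At scaffold_449:24422-24877 all lists were low, with folds of 9.42, 10.4, 7.42, 7.36, 8.65 and 7.18 in the same order and places from 34 to 36. A region could thus be last in some lists only, or near the end in all of them.

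The order of the regions by fold enrichment was nearly equal between some lists and unlike between others. Spearman's rho, a rank correlation that is 1 for equal order, ran from 0.0275 (PtrC2H2ZF2 with PtrNAC127) to 0.968 (the 2 zinc finger lists). It was 0.903 for PtrC2H2ZF1 with PtrBLH and 0.799 for PtrNAC127 with PtrCORONA. These values describe single libraries with a common input and carry no test. The place of a region varied by 20 or more of the 37 places in 11 regions and by 10 or fewer in 10, with a median of 14. In scaffold_42 the fold enrichment was 54.8 for PtrC2H2ZF1, 56.6 for PtrC2H2ZF2, 18.8 for PtrARF5a, 27.4 for PtrBLH, 16.5 for PtrNAC127 and 20.6 for PtrCORONA. It was the first of the 37 in the zinc finger and PtrBLH lists and took places 4, 6 and 5 in the others. The scaffold_728 region (scaffold_728:13474-14027) was among the first 5 in every list, with folds of 46.6, 45.4, 22.2, 26.4, 18.2 and 23.7 in the same order.

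Other regions changed sides. At scaffold_207:53562-54427 the fold enrichment was 30.1 for PtrARF5a, 31.8 for PtrNAC127 and 25.3 for PtrCORONA, which put it at places 1, 1 and 2. In the lists of PtrC2H2ZF1 (13.0), PtrC2H2ZF2 (12.4) and PtrBLH (6.33) the same region took places 32, 31 and 35. The second region of this scaffold, scaffold_207:58658-59204, had folds of 17.8 for PtrNAC127 and 23.6 for PtrCORONA (places 5 and 4) beside 11.4, 9.09 and 7.86 for PtrC2H2ZF1, PtrC2H2ZF2 and PtrBLH (places 35, 36 and 32). PtrARF5a was between these, at 14.4 and place 16.

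A like pattern was seen at scaffold_41:90579-91120, with places 2, 2 and 1 for PtrARF5a (26.0), PtrNAC127 (23.5) and PtrCORONA (25.4), and places 31, 33 and 26 for PtrC2H2ZF1 (13.3), PtrC2H2ZF2 (11.4) and PtrBLH (14.3). The division was another at scaffold_146:14762-17601, which was second in both zinc finger lists. It took place 25 for PtrARF5a, 23 for PtrNAC127, 14 for PtrBLH and 11 for PtrCORONA, so here PtrBLH did not go with the zinc finger lists. These regions were picked after their values had been seen, and with 1 library per TF their differences in place carry no test.

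**Figure D3:**
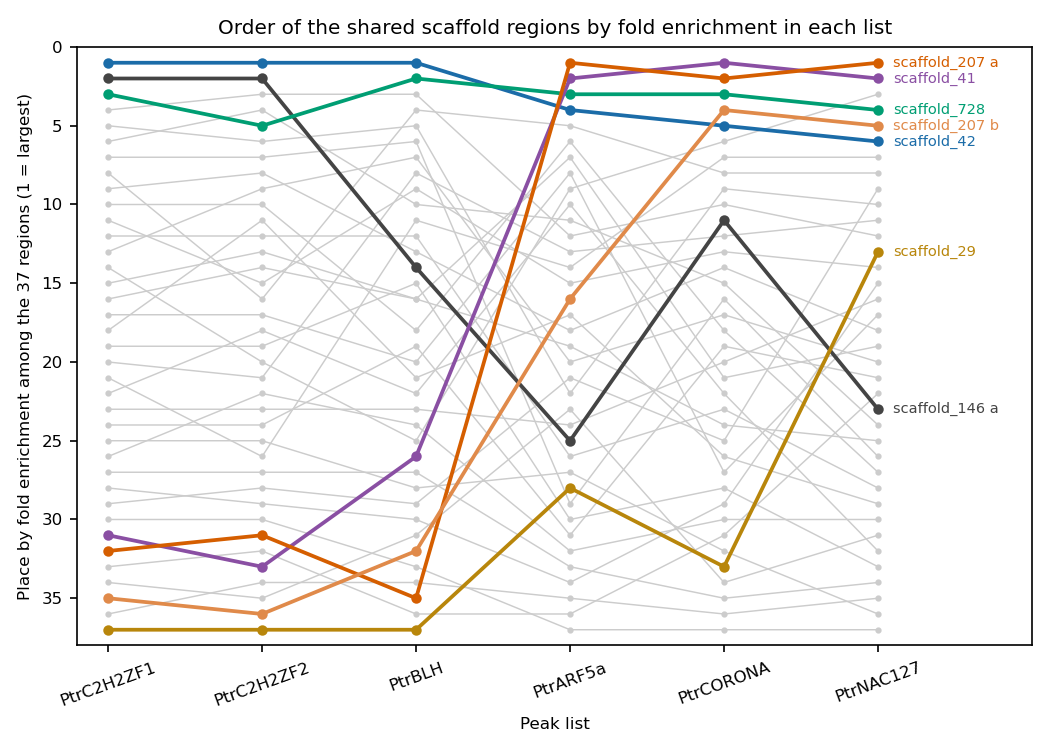
Each line follows 1 of the 37 regions of all 6 lists through its place by fold enrichment in each peak list (y axis, 1 is the largest fold), with 7 regions coloured and named. The regions of scaffold_207 and scaffold_41 rise from places 26 to 36 in the zinc finger and PtrBLH lists to places 1 to 5 in the PtrNAC127 and PtrCORONA lists, while scaffold_42 and scaffold_728 stay within the first 6 places throughout.

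Summits of the different TFs lay close together in most of the 37 regions. Summit distances were not measured on the chromosomes, so this is not shown to be particular to scaffolds. The distance between the outermost summits of the 6 lists, taking the strongest peak of a list where it had several, ranged from 3 to 315 bp with a median of 27 bp, and it was under 50 bp in 29 regions and under 100 bp in 33. At scaffold_41 the 6 summits fell within 3 bp. Distances over 200 bp occurred in 2 regions, 315 bp in the wide scaffold_146 region and 226 bp at scaffold_207:53562-54427, where the PtrBLH and PtrARF5a summits were the outermost.

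The regions of all 6 lists were 456 to 2840 bp wide, with a median of 629 bp, beside a median of 583.5 bp and a maximum of 8688 bp on the chromosomes. A width over 1 kb was reached by 5 of 37 (13.5%), beside 40 of 476 (8.40%) on the chromosomes. Within these regions PtrARF5a covered the fewest bases in 35 of 37 and PtrBLH in the other 2 (on scaffold_29 and the second region of scaffold_207). The median covered width was 612 bp for PtrC2H2ZF1, 617 bp for PtrC2H2ZF2, 363 bp for PtrARF5a, 579 bp for PtrBLH, 611 bp for PtrNAC127 and 591 bp for PtrCORONA. Compared region by region with PtrCORONA, PtrARF5a covered less in 37 of 37 (median difference −235 bp) and PtrBLH also in 37 of 37, with a median difference of −24 bp. PtrC2H2ZF2 was the widest list most often, in 18 regions. The narrowest peak of the whole list was 167 bp for PtrARF5a and 284 to 297 bp for the other 5 lists. Widths depend on the fragment length and depth of each library. Neither these nor the narrowest width of a list were tested for a part in the differences.

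PtrARF5a also had several peaks in some wide regions. In 35 of the 37 regions each list had exactly 1 peak. On scaffold_37 the region of 2421 bp was covered by 1 peak in 5 lists and by 3 PtrARF5a peaks, which together covered 1852 bp, and on scaffold_966 the PtrARF5a list had 2 peaks in a region that was 1 peak in the others. PtrARF5a was likewise the only list with more than 1 peak in a region on scaffold_25 and scaffold_51.

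**Figure D4:**
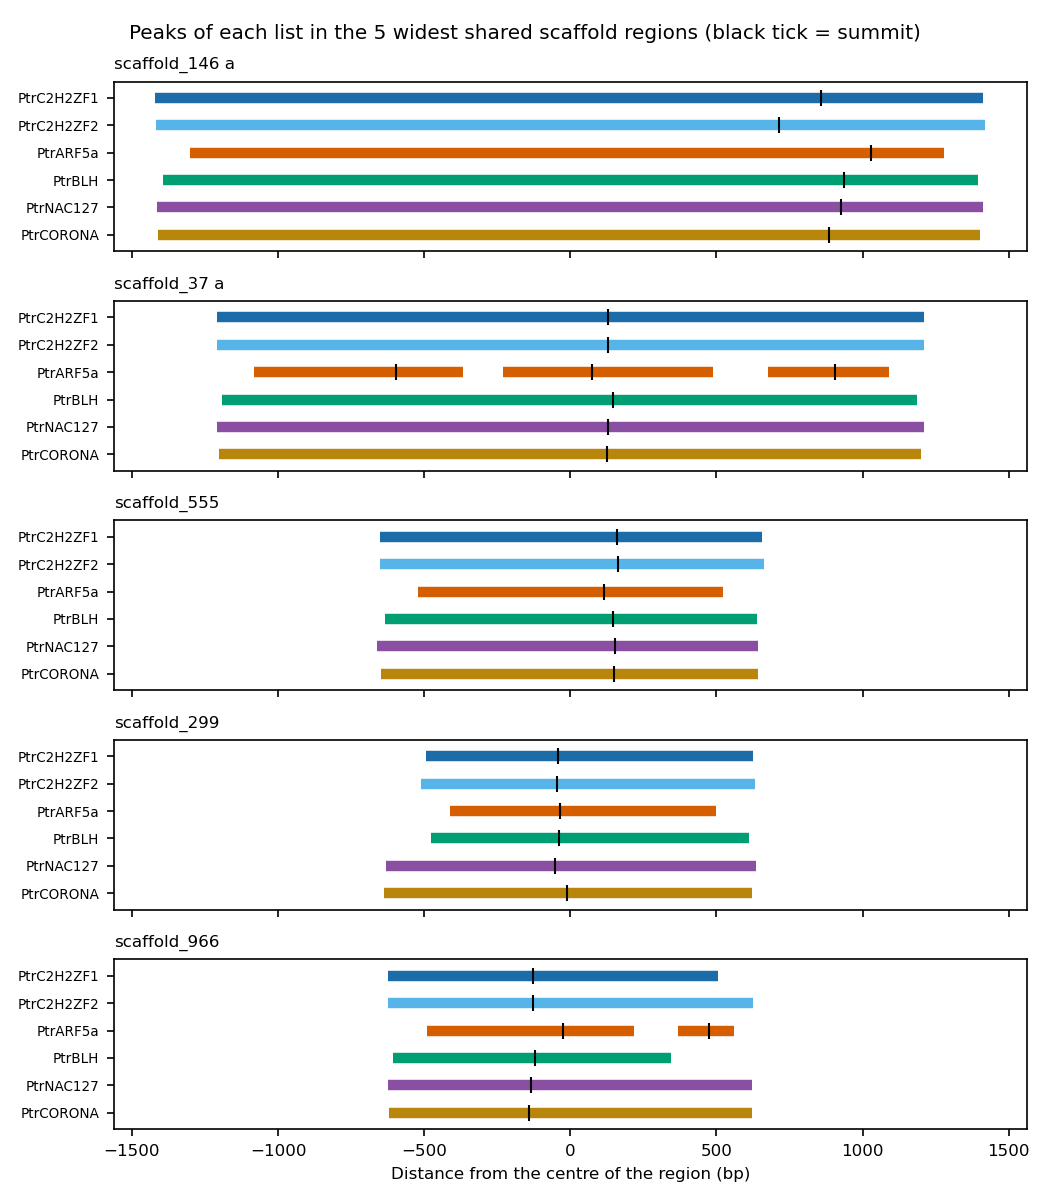
Bars show the extent of each list's peaks in the 5 widest scaffold regions of all 6 lists, as distance in bp from the centre of the region, and black ticks are summits. The PtrARF5a bars are the shortest or broken into pieces (3 on scaffold_37, 2 on scaffold_966), and the summits of scaffold_146 a are spread over 315 bp, against 47 bp on scaffold_555.

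Over all scaffold peaks the median width was 597.5 bp for PtrC2H2ZF1, 601 bp for PtrC2H2ZF2, 234 bp for PtrARF5a, 536.5 bp for PtrBLH, 565 bp for PtrNAC127 and 533 bp for PtrCORONA. The chromosome medians were 553, 550, 239, 487, 540 and 501 bp in the same order. Scaffold peaks were wider in 5 of 6 lists, by 32.8 bp on average (SD 21.2), with PtrARF5a the exception (exact permutation p = 0.0625, adjusted 0.125). Without scaffold_37 the mean difference was 19.7 bp. Restricted to peaks in regions of all 6 lists, the scaffold median was larger in 6 of 6 lists, by 33 to 60 bp and 47.3 bp on average (SD 10.9, exact permutation p = 0.03125, adjusted 0.125). Neither difference passed after adjustment.

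By −log10 q, scaffold peaks stood at a median percentile of 63.2 for PtrC2H2ZF1, 65.8 for PtrC2H2ZF2, 46.3 for PtrARF5a, 75.9 for PtrBLH, 64.2 for PtrNAC127 and 73.0 for PtrCORONA. Chromosome peaks had medians of 49.0 to 50.1. The scaffold median was higher in 5 of 6 lists, by 15.4 percentile points on average (SD 10.7, exact permutation p = 0.0625, adjusted 0.125), and the difference was −3.82 points for PtrARF5a. By fold enrichment it was higher in 4 lists and lower for PtrARF5a and PtrNAC127 (mean difference 9.15 points, exact permutation p = 0.15625, adjusted 0.25). Among peaks in regions of all 6 lists the mean difference in fold rank was 1.39 points, with 3 lists each way (exact permutation p = 0.75, adjusted 0.78125). None of the 8 measures passed after adjustment, which no measure could do alone with 6 libraries.

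**Figure D5:**
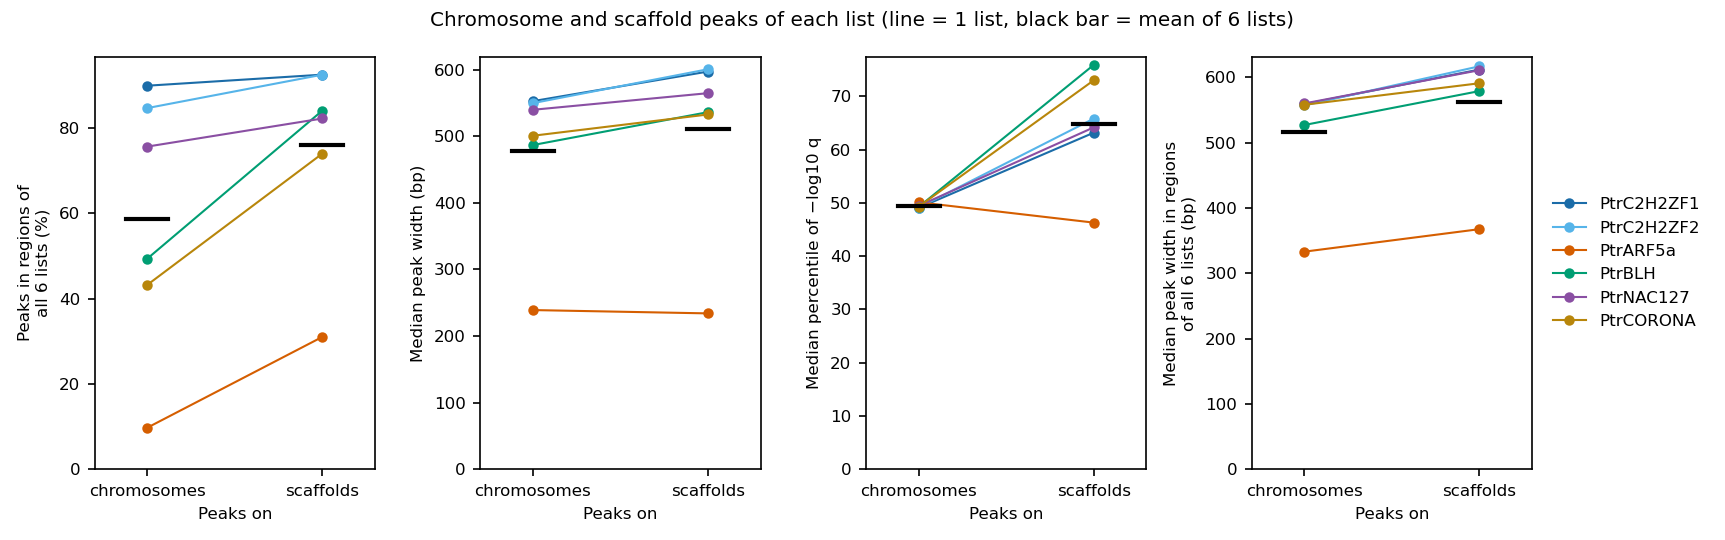
Each line joins the chromosome and scaffold value of 1 peak list for the percent of peaks in regions of all 6 lists, the median peak width (bp), the median percentile of −log10 q and the median peak width (bp) in regions of all 6 lists, and black bars are means of the 6 lists. The share and the width within shared regions rise in 6 of 6 lists (means 58.7 to 76.1% and 516 to 563 bp), and PtrARF5a is the one line that falls in the width and percentile panels over all peaks.

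Scaffold peaks also reached the upper end of every list. The peaks above the 90th percentile of −log10 q included 6 of the 40 scaffold peaks of PtrC2H2ZF1 (15.0%), 7 of 40 of PtrC2H2ZF2 (17.5%), 33 of 129 of PtrARF5a (25.6%), 12 of 44 of PtrBLH (27.3%), 8 of 45 of PtrNAC127 (17.8%) and 13 of 50 of PtrCORONA (26.0%). For chromosome peaks the share was 9.29 to 9.72%. Above the 90th percentile of fold enrichment were 24 scaffold peaks of PtrARF5a (18.6%), 7 of PtrCORONA (14%), 4 of PtrC2H2ZF2 (10%), 3 of PtrC2H2ZF1 (7.5%), 2 of PtrBLH (4.55%) and 2 of PtrNAC127 (4.44%), beside 9.79 to 10.5% of chromosome peaks. In all 6 lists fewer scaffold peaks were past this mark by fold than by −log10 q. These are descriptions of single libraries, with no test.

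Regions of 2 to 5 lists were 19 in number and mostly weak. PtrARF5a took part in 18 of them. In the whole series PtrARF5a peaks overlapped 94.3 to 97.7% of all peaks of each other list, but this includes peaks in regions of all 6 lists. The share of regions of 2 to 5 lists with PtrARF5a was not counted for the whole series. PtrARF5a with PtrBLH and PtrARF5a with PtrCORONA occurred in 4 regions each (3.10% of scaffold regions, beside 4.11% and 5.00% of all regions). PtrARF5a with PtrNAC127 and PtrCORONA occurred in 3 (2.33%, beside 0.909%). PtrARF5a with PtrBLH and PtrCORONA, and PtrARF5a with PtrNAC127, occurred in 2 each (1.55%, beside 3.24% and 0.327%). In the lists of PtrC2H2ZF1, PtrC2H2ZF2 and PtrNAC127 the peaks of this class had median percentiles of −log10 q of 2.39, 6.43 and 4.63, from 2, 3 and 7 peaks. The medians were 22.2 for PtrBLH (6 peaks), 33.5 for PtrCORONA (12 peaks) and 46.3 for PtrARF5a (20 peaks). Peaks of this class thus lay near the bottom of the zinc finger and PtrNAC127 lists.

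A few regions of this class were stronger. At scaffold_966:7278-7825 the −log10 q was 37.6 for PtrNAC127 (fold 8.41), 32.6 for PtrCORONA (8.66) and 18.2 for PtrARF5a (6.01), with no peak of the other 3 lists. At scaffold_25:102604-103438 the stronger of 2 PtrARF5a peaks reached a −log10 q of 40.3 (fold 12.7, percentile 90.5), beside 8.83 for PtrCORONA and 5.32 for PtrBLH. The regions with 4 lists were scaffold_570:12801-13324, where PtrARF5a had a fold of 15.3 and PtrC2H2ZF2, PtrNAC127 and PtrCORONA had 7.04, 7.80 and 7.42, and scaffold_76:175681-176187, where PtrC2H2ZF1, PtrC2H2ZF2, PtrARF5a and PtrCORONA had folds of 6.38, 6.44, 8.29 and 8.37. Only scaffold_23:357786-358278 lacked PtrARF5a in this class. It carried a PtrC2H2ZF2 peak (−log10 q 4.57) and a PtrNAC127 peak (6.90), both under the 2nd percentile of their lists.

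Outside PtrARF5a, each single-list peak stood alone in its list. The PtrC2H2ZF1 peak at scaffold_200:45668-45964 had a −log10 q of 4.37 (fold 3.88, place 569 of 575). The PtrNAC127 peak at scaffold_95:94316-94612 had 8.29 (fold 7.03, place 656 of 681), and the PtrBLH peak at scaffold_23:746182-746644 had 3.02 (fold 1.34, place 1007 of 1023). The PtrCORONA peak at scaffold_184:69523-69946 reached 7.69 (fold 6.36, place 863 of 1159). The first 3 of these peaks were thus at percentiles 0.783, 3.82 and 1.66 of their lists, and the PtrCORONA peak was at 25.2. PtrC2H2ZF2 had no single-list peak on a scaffold.

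Single-list peaks of PtrARF5a were many, narrow and weak. The 69 peaks lay on 57 scaffolds, 51 of which held just 1 of them, and 16 of the 69 were on 11 scaffolds that also had a region of all 6 lists. Their median width was 167 bp, beside 217 bp for the 3931 single-list PtrARF5a peaks of the chromosomes, and 37 of them (53.6%) had exactly the narrowest width in the list, 167 bp, beside 14.7% on the chromosomes. The median −log10 q was 4.63 beside 6.83, the median fold 4.69 beside 6.16, and the median percentile in the list 16.3 beside 39.3. There were 13 of 69 (18.8%) above the 50th percentile and none above the 90th. A −log10 q of at least 10 was found for 8. Matching counts were not taken for the chromosome peaks, so these are not shown to be particular to scaffolds. No other PtrARF5a peak lay within 5 kb of any of the 69, which by the same limit of 3 counts allows a share of up to 4.35%, whereas 1236 of the 3931 on the chromosomes (31.4%) had one. A short scaffold leaves less room for a neighbour, and the part of scaffold length in this was not tested.

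Many of these peaks carried identical statistics. In 23 of 69 (33.3%) the fold enrichment was 3.75 and the −log10 q 3.56, and 22 of the 23 were also 167 bp wide. They lay on 22 scaffolds. Among the single-list PtrARF5a peaks of the chromosomes the same pair of values occurred in 59 of 3931 (1.5%). All 69 peaks together had 32 distinct pairs of fold and −log10 q. Read counts under the peaks were not used here, and what set these equal values was not tested.

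The strongest single-list PtrARF5a peak was at scaffold_25:173122-173391, where −log10 q was 19.4 and fold enrichment 11.7 (place 888 of 5397). It was followed by scaffold_252:60321-60586 (15.8, fold 11.1, place 1106) and scaffold_20:796559-796758 (14.6, fold 7.42, place 1214). On scaffold_20 all 4 regions were PtrARF5a alone, with −log10 q of 9.0, 8.35, 14.6 and 3.56. On scaffold_29, the scaffold with the most regions (6), 5 regions of PtrARF5a alone had −log10 q of 4.76, 5.17, 4.40, 3.56 and 3.56 beside the 22.2 of PtrARF5a in the shared region. The strongest of all single-list peaks on scaffolds was thus weaker than the median PtrARF5a peak in regions of all 6 lists, where −log10 q was 128.

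Fold enrichment was under 2 for 4 scaffold peaks on scaffold_21 and scaffold_23. On scaffold_21 a PtrBLH peak at scaffold_21:337396-337834 had a fold of 1.71 with a −log10 q of 12.3, and the PtrARF5a peak inside it had 1.3 with 2.75. A further PtrARF5a peak at scaffold_21:435757-435944 had a fold of 1.64 with a −log10 q of 3.47. The last was the single-list PtrBLH peak on scaffold_23 (1.34).

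Spacing between peaks of a list was compared by the share of peaks with a near neighbour, and its direction differed among the lists and with the distance used. The share of scaffold peaks with another peak of the same list within 5 kb was 10% for both zinc finger proteins, 10.9% for PtrARF5a, 9.09% for PtrBLH, 13.3% for PtrNAC127 and 12% for PtrCORONA. On the chromosomes it was 11.0, 10.9, 30.7, 10.3, 7.55 and 8.21% in the same order. The mean difference was −2.24 points (SD 9.12, exact permutation p = 0.78125, adjusted 0.78125), with 2 lists higher and 4 lower on scaffolds. Counting neighbours within 1 kb, all 6 lists were lower (mean −6.16 points, adjusted exact permutation p = 0.0833), and within 20 kb 4 were higher and 2 lower (mean −3.88 points). The difference was −19.9 points for PtrARF5a and between −1.23 and 5.79 points in the other lists.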

How the data were processed

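Peak lists of 6 ChIP-seq libraries, 1 per TF, were analysed, and the input had no file used here. Per the study's methods, the authors trimmed reads with Trimmomatic, used Bowtie2 for mapping to the Populus tremula × alba assembly, removed low-quality and duplicate reads with SAMtools and called peaks with MACS2 2.1.0 (submitters' processing notes). The deposited values per peak are a score, the fold enrichment (ratio over the input) written by the authors' caller, and 2 measures of confidence, −log10 p and −log10 q. The mapped depth of each library is unknown here. The score and the −log10 p were not analysed. Members and lists were chosen with earlier results of these data known.

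Peaks sharing at least 1 bp were merged into regions. Percentiles were taken within a list. Named were, per list, the 5 strongest scaffold peaks by −log10 q and up to 3 single-list scaffold peaks, then the 10 shared regions of highest mean percentile. Regions named for their order of fold, for low values or from 2 to 5 lists were chosen after their values were seen. Scaffold and chromosome values were compared over the 6 libraries by an exact two-sided sign-flip permutation test (64 sign patterns, Benjamini-Hochberg over 8 measures), tested on simulated data. Python 3.11.15, pandas 2.3.3, numpy 2.4.6, scipy 1.17.1 and matplotlib 3.10.9 were used. Alternatives were a −log10 q of at least 5 or 10, reciprocal overlap of 50%, merging of peaks up to 100 bp apart, neighbours within 1 or 20 kb, leaving out PtrARF5a or scaffold_37, and 1 peak per scaffold and list.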

Additional observations from a re-analysis of the deposited data

How the results depend on the processing

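Under other settings, 67 recomputed values kept their mean direction and their side of the threshold (untested values stayed near the main one), 6 moved and 2 changed sign. Some of the 67 changed by over 1.5 times. Keeping a side of the threshold says little, since without PtrARF5a no value could pass (smallest raw permutation p 0.0625). The difference in the share of peaks in regions of all 6 lists (17.3 points, 6 of 6 lists higher) was 12.2 points at −log10 q of at least 10. There 5 lists were higher and 1 was lower. The neighbour difference was −6.16 points within 1 kb, −3.88 within 20 kb and −0.52 at −log10 q of at least 5. The width difference (32.8 bp) was 19.7 bp without scaffold_37 and 53.8 bp at −log10 q of at least 10, and the difference in percentile of −log10 q (15.4) was 23.9 there. The single-list difference (−4.27 points) was −6.46 and −7.88 points at −log10 q of at least 5 and 10 and −6.61 without PtrARF5a. The fold rank difference within shared regions (1.39) was 2.45 under reciprocal overlap and 3.33 with 1 peak per scaffold and list. The difference in the share of peaks with a neighbour within 5 kb turned from −2.24 to 1.69 points (adjusted exact permutation p = 0.643) with peaks of −log10 q of at least 10, and to 1.28 points (adjusted exact permutation p = 0.571, smallest raw p with 5 libraries 0.0625) without PtrARF5a. The number of scaffolds with peaks of 1 list only was 44, and it fell to 27 at −log10 q of at least 5, to 11 at 10 and to 10 without PtrARF5a, where fewer peaks entered. The number of merged scaffold regions was 129, 55 at −log10 q of at least 10 and 60 without PtrARF5a. The scaffold share of the PtrCORONA list rose from 4.31 to 5.71% at −log10 q of at least 10. The regions of all 6 lists numbered 32 to 37 and the scaffolds marked by every list 28 to 31 under the settings tried for them. No analysis paired across TFs was possible, because each TF had 1 library and no replicate number joined samples of different TFs. Scaffold and chromosome values were compared as pairs within each library. With unknown mapped depth, a peak missing from a shorter list cannot be told apart from a site without enrichment.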
